A study of Homo sapiens with 10 samples.

Results

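The 10 genes described here form the NRF2, glutathione and ferroptosis defence system: NFE2L2, KEAP1, NQO1, HMOX1, GCLC, GCLM, TXNRD1, SRXN1, SLC7A11 and GPX4. They were taken by gene name from both deposited expression tables, each of which lists 35606 genes, and all 10 were found once in each table. RNA-seq was done on QGP-1, an established human pancreatic neuroendocrine tumor line, in 10 samples that form 5 groups of 2. In the knockdown table, cells carried a CRISPR interference vector with dCas9-KRAB, a Cas9 that does not cut, joined to a transcriptional repressor, and either the control guide sgNC (labelled WT) or the guide sgPIKFYVE-1 (labelled PIKFYVE knockdown), with no drug. In the drug table, cells labelled WT received DMSO, apilimod at 1 uM, an inhibitor of the lipid kinase PIKfyve, or Torin-1 at 100 nM, an inhibitor of the kinase mTOR; the labels give 24 h for both drugs, whereas the study's figure legends name a shorter time. The knockdown rests on a single guide in cells infected with lentivirus and selected with puromycin, and the methods do not say that a clone was picked. The labels do not say whether the samples of a group came from separate cultures, so the p-values measure only the spread between these samples, which may be technical.

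NRF2, encoded by NFE2L2, is a transcription factor that is held at low level by KEAP1, an adaptor that presents it to a ubiquitin ligase for degradation. When KEAP1 is modified by electrophiles or bound away by the autophagy receptor p62, NRF2 escapes, pairs with small MAF proteins and binds antioxidant response elements near genes for glutathione synthesis, the thioredoxin system and quinone detoxification. Cystine enters the cell through SLC7A11, is reduced to cysteine and becomes glutathione, and GPX4 uses glutathione to reduce lipid hydroperoxides. Iron-driven peroxidation of membrane lipids that exceeds this capacity kills the cell by ferroptosis.

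Sequences show what links several of these genes. GPX4 and TXNRD1 are selenoproteins, whose catalytic selenocysteine is encoded by a TGA codon that is read through. In GENCODE release 29 on GRCh38 this codon lies at chr19:1105403-1105405 in GPX4, where it is codon 73 of 197, and at chr12:104348413-104348415 in TXNRD1, where it is codon 498 of 499 in the transcript read, with 1 codon after it. Both stretches are printed on the coding strand with the selenocysteine codon in capitals.
GPX4: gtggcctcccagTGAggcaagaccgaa
TXNRD1: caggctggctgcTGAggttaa

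The antioxidant response element core, searched as TGACNNNGC on both strands, was found in 13.3% of the 35116 RefSeq promoter windows on GRCh38.p14 that run from 250 bases before a start to 50 after it. Of the 13 member windows, 4 held a match. They belong to 3 of the 8 member genes that have a window: GCLM, TXNRD1 and KEAP1. The 4 of 6 matches shown are in gene orientation, with the matched bases in capitals. GCLM and KEAP1 carry the same 9 bases, GCTTAGTCA, in which the core reads on the opposite strand, 34 to 26 bases before the start of GCLM and 31 to 23 before that of KEAP1. The lines give, in order, chr1:93909446-93909474 on the reverse strand, chr19:10502784-10502812 on the reverse strand, and chr12:104215670-104215698 and chr12:104286920-104286948 on the forward strand, the last 2 belonging to separate TXNRD1 starts.
GCLM: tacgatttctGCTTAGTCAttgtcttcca
KEAP1: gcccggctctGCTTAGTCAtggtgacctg
TXNRD1 start A: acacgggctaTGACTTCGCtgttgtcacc
TXNRD1 start B: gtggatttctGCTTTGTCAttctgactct
The ATF4 element, searched as TGATGNAA, was in 3.62% of all windows and in none of the 13 member windows, which says only that these letters are not in those windows. HMOX1 and SLC7A11 were not among the windows matched. Over the 9 pathway lists described further on, the antioxidant response element core was in 7.69% (heme genes) to 32% (other known NRF2 targets, 8 of 25 windows) of the windows, with 9.52% for the thioredoxin list, 11.8% for genes that favour ferroptosis, 12.5% for regulators, 14.3% for suppressors, 15.8% for cystine supply, 17.9% for glutathione genes and 22.2% for selenocysteine genes. The ATF4 element was in 3 of 19 windows of the cystine supply list (15.8%), 2 of 28 of the glutathione list (7.14%) and 1 of 9 of the selenocysteine list (11.1%), and in no window of the other 6 lists. These matches are letters in a window and not shown binding sites.

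The deposited values are CPM, read counts divided by an effective library size, so levels are compared within a table and between genes only per kb of exon. Depth was estimated at 9.30 to 13.6 M reads per sample, at which 3 reads correspond to 0.227 to 0.329 CPM, a floor that covers counting error only. PIKFYVE stood at 101 and 97.5 CPM with sgNC and at 10.9 and 12.5 CPM with sgPIKFYVE-1, 11.8% of the control mean. All 7 neuroendocrine markers used to check the cell type (among them CHGA and SYP) and all 5 epithelial markers had means of at least 1 CPM, with sums of 6145 to 9459 CPM and 2269 to 3271 CPM over the samples. Summed markers of fibroblasts, leukocytes, endothelium and acinar cells reached at most 19.4 CPM in any sample. The 13 mitochondrially encoded genes held 6.90% to 6.91% of the signal with sgNC, 8.33% to 8.42% with sgPIKFYVE-1 and 7.36% to 7.70% in the drug table, and the part of this shift in the knockdown results was not tested.

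Among the members, NQO1 was expressed most and HMOX1 least in both control groups. Per kb of merged exons, NQO1 had 174 and 192 CPM per kb with sgNC and 169.9 and 169 CPM per kb with DMSO. With sgNC the order of the means went on with GPX4 at 51.9, TXNRD1 at 45.4, NFE2L2 at 40.0, SRXN1 at 35.4, SLC7A11 at 29.8, GCLC at 17.2, KEAP1 at 15.04, GCLM at 8.01 and HMOX1 at 0.298 CPM per kb, and no neighbours in this order overlapped. With DMSO the order was NQO1, TXNRD1 (61.5), GPX4 (60.3), SRXN1 (44.4), NFE2L2 (34.1), SLC7A11 (33.9), KEAP1 (24.1), GCLC (16.0), GCLM (11.4) and HMOX1 (0.194 CPM per kb), where NFE2L2 and SLC7A11 overlapped and so did not differ beyond their spread. Dividing by the longest transcript in place of merged exons kept 8 of the 20 ranks, so the order in the middle depends on the exon length taken, while NQO1 at the top and GCLM and HMOX1 at the bottom held in both.

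**Figure D1:**
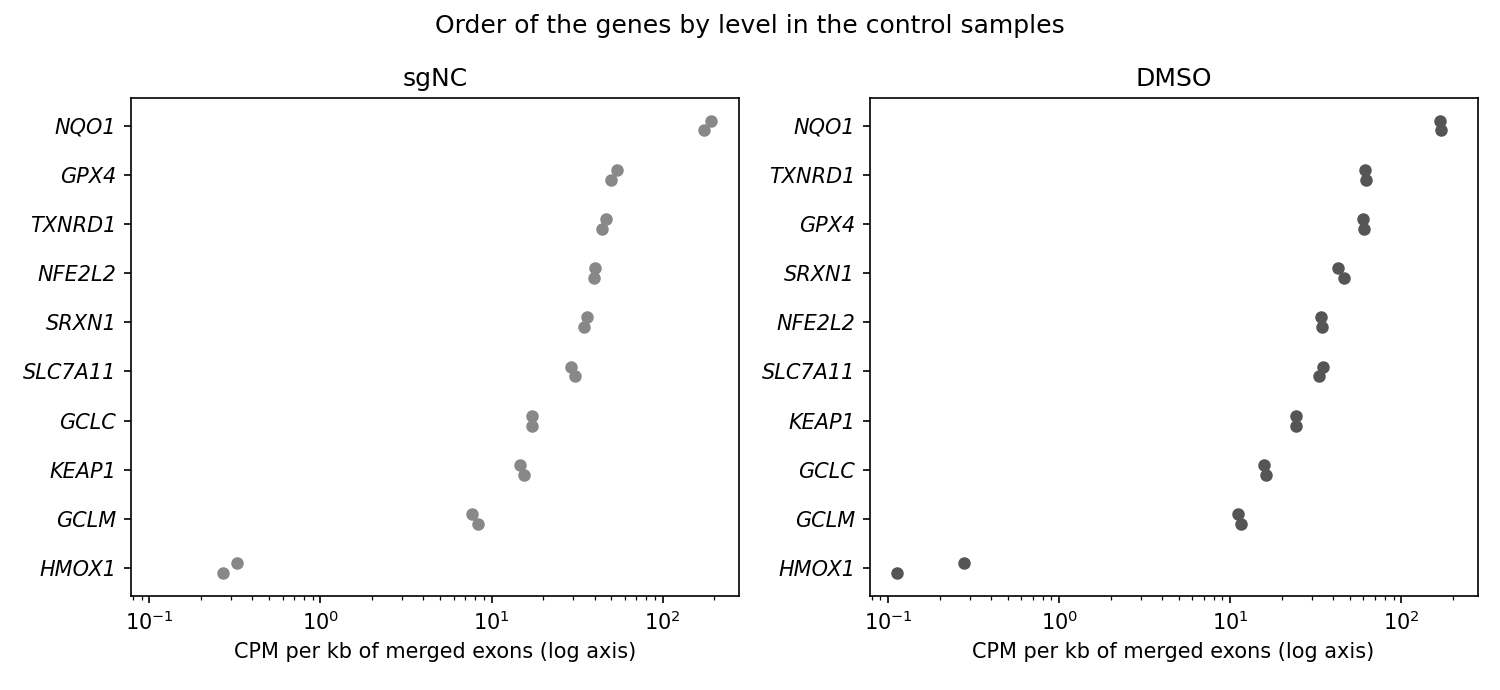
CPM per kb of merged exons (log axis) for the 10 genes in the 2 sgNC samples and the 2 DMSO samples, 1 point per sample, ordered by mean. NQO1 lies at 183 and 169.6 CPM per kb on average and HMOX1 at 0.298 and 0.194.

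PIKFYVE knockdown raised 6 of the 10 genes and lowered 1. TXNRD1, GCLM, SRXN1, SLC7A11, GPX4 and KEAP1 were higher with sgPIKFYVE-1, NFE2L2 was lower, and NQO1, GCLC and HMOX1 did not pass the test. The test was limma on log2(CPM + 1), with Benjamini-Hochberg adjustment over 13591 genes, and a gene was called when its adjusted p was under 0.05. In bulk RNA, fewer cells of a type and less RNA per cell cannot be told apart. Of all genes tested, 42.5% were called in this comparison, 21.6% higher and 20.9% lower. Against that background 7 of 10 members were called, with a median log2 fold change over the 10 of 0.34, compared with -0.0042 over all genes. That median includes HMOX1, which had the largest value at 0.61 and passed the filter on low values through the sgPIKFYVE-1 samples alone. Without the filter on low values, 5 members were called. Without a variance trend the count was also 5, but with HMOX1 in place of GPX4. HMOX1, which was close to the detection floor, was then called, and NFE2L2, KEAP1 and GPX4 were not. A log2 fold change of 1.5 in either direction, the cutoff used in the study's methods, was passed together with the test by 1.04% of genes and by no member.

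Apilimod changed fewer of the genes. GPX4 and SLC7A11 were higher and NQO1 was lower than with DMSO, 3 of the 9 members tested, beside 8.54% of all 13520 genes (5.75% higher and 2.79% lower). The median over the 9 was -0.0047, beside -0.0057 over all genes. Torin-1 called 5 of 9, with SLC7A11 and GCLC higher and TXNRD1, NQO1 and SRXN1 lower, where 38.5% of all genes were called (16.6% higher and 21.8% lower). Its median over the 9 was -0.042, beside -0.012 over all genes. The cutoff of 1.5 was passed by 0.459% of genes with apilimod, by 0.362% with Torin-1 and by no member in either. SLC7A11 was the only member called in all 3 comparisons, and it was higher in each, while TXNRD1 and SRXN1 were higher with the knockdown and lower with Torin-1. Apilimod and Torin-1 share their DMSO samples.

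**Figure D2:**
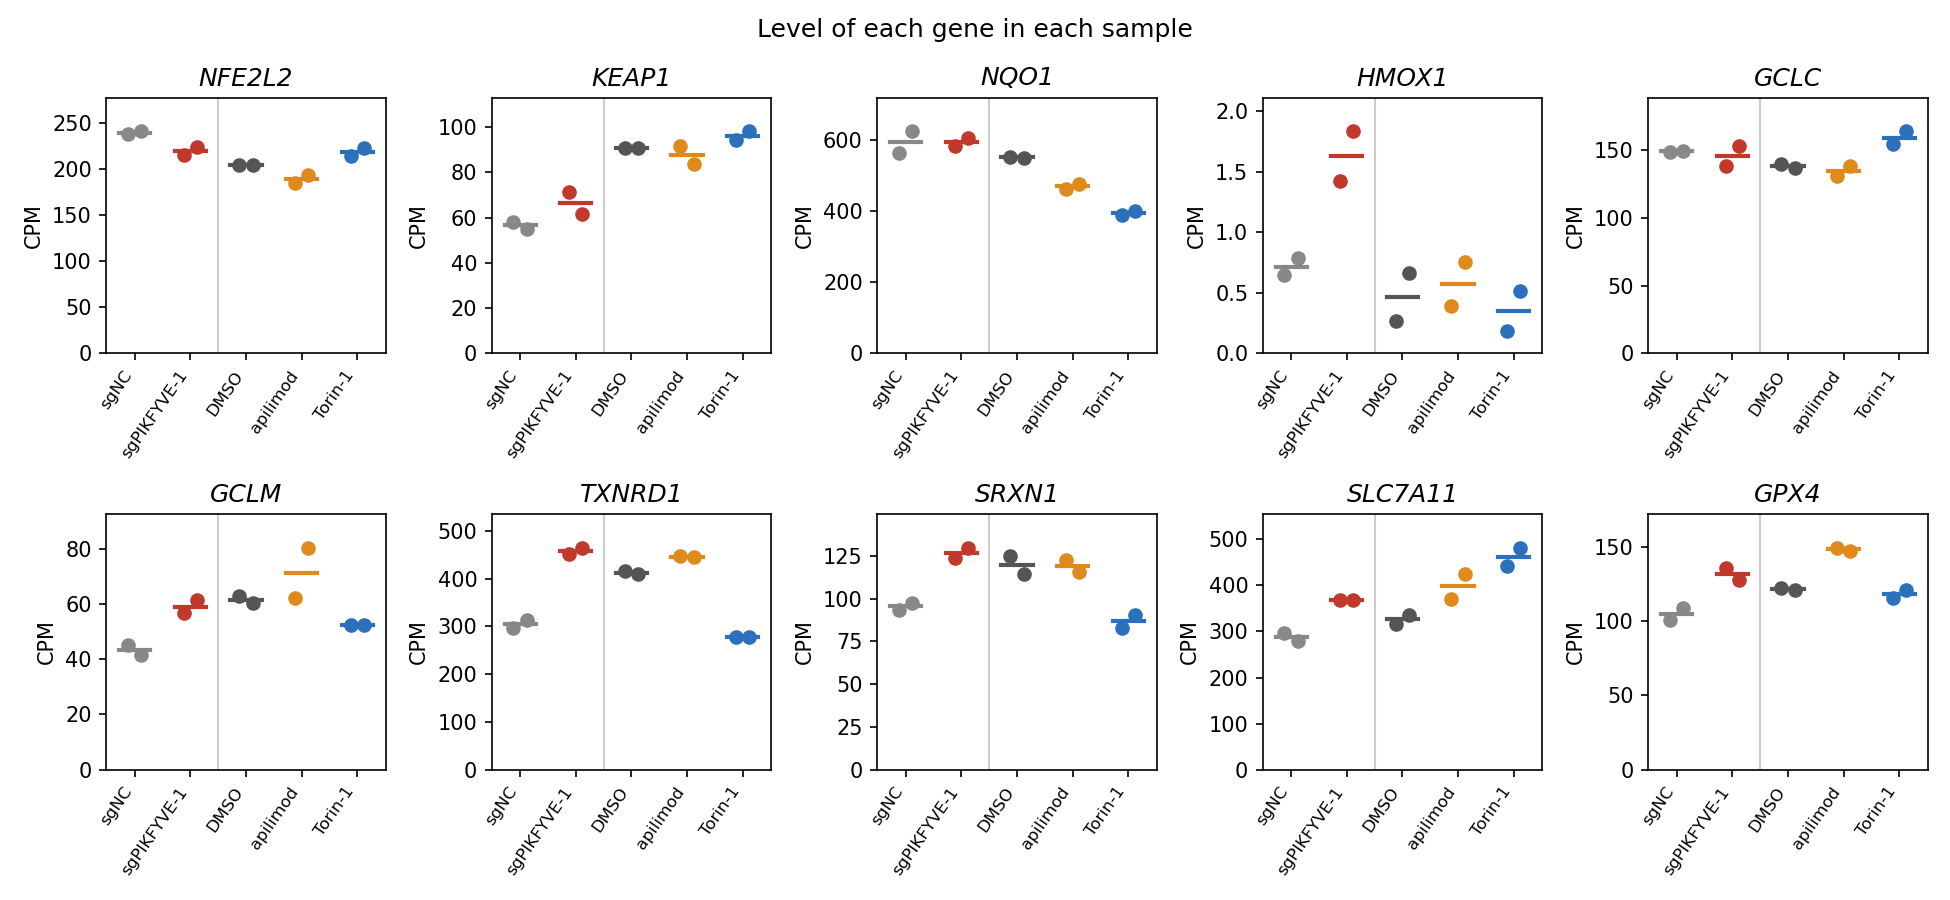
CPM of each gene in each sample, with 2 points per group, a bar at the group mean and a grey line between the separately normalized knockdown and drug tables. TXNRD1 lies at 451 and 465 CPM with sgPIKFYVE-1 against 297 and 312 with sgNC, and at 277 and 279 with Torin-1 against 415 and 409.8 with DMSO.

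The regulators differed from their controls by at most 0.23 on the log2 scale. NFE2L2 (ENSG00000116044.16, chr2:177227595-177392697), the gene of NRF2 itself, had 238 and 241 CPM with sgNC and 215 and 223 CPM with sgPIKFYVE-1. The knockdown samples were both below the control samples, with a log2 fold change of -0.13 (SE 0.050, adjusted p = 0.0471 with limma). It had 204 CPM in both DMSO samples, 185 and 194 CPM with apilimod and 213 and 223 CPM with Torin-1, so the DMSO values lay between those of the drugs. Neither drug passed the test, at -0.11 (adjusted p = 0.269) for apilimod and 0.10 (adjusted p = 0.172) for Torin-1 with limma, although Torin-1 passed after quantile normalization (0.17, adjusted p = 0.0177). The apilimod samples were nonetheless below the Torin-1 samples by 0.20 on the log2 scale (log2 difference -0.20, SE 0.053, adjusted p = 0.00629).

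KEAP1 (ENSG00000079999.14, chr19:10486120-10503741), which marks NRF2 for degradation, had 58.0 and 55.2 CPM with sgNC and 71.4 and 61.8 CPM with sgPIKFYVE-1. The groups did not overlap, and the log2 fold change was 0.23 (SE 0.081, adjusted p = 0.0291). With DMSO it had 90.9 and 90.7 CPM, with apilimod 91.7 and 83.8 CPM and with Torin-1 94.4 and 98.1 CPM. Neither drug changed it past the threshold (adjusted p = 0.753 for apilimod and 0.363 for Torin-1). Both calls among the regulators were close to the threshold: without sgNC replicate 2 the adjusted p was 0.203 for NFE2L2 and 0.149 for KEAP1, and without sgPIKFYVE-1 replicate 1 it was 0.176 and 0.267. NFE2L2 also lost its call without sgNC replicate 1 (adjusted p = 0.133), and KEAP1 lost it when each sample was rescaled to the same sum (adjusted p = 0.0752) or quantile normalized (adjusted p = 0.0628). Both were also lost without the filter on low values (adjusted p = 0.0858 for NFE2L2 and 0.122 for KEAP1) and without a variance trend (adjusted p = 0.238 and 0.157).

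NQO1 (ENSG00000181019.13, chr16:69706996-69726951), a quinone reductase and a classic NRF2 target, did not differ detectably in the knockdown and was lower with both drugs. It had 565 and 625 CPM with sgNC and 584 and 606 CPM with sgPIKFYVE-1. The knockdown values lay inside the control range, and the log2 fold change was 0.00082 with a 95% interval of -0.10 to 0.10. With DMSO it had 553 and 551 CPM, with apilimod 463 and 478 CPM and with Torin-1 389 and 402 CPM. The 3 drug-table groups did not overlap, with Torin-1 lowest. Apilimod lowered NQO1 to 85.3% of the DMSO mean (log2 fold change -0.23, SE 0.043, adjusted p = 0.00332) and Torin-1 lowered it to 71.6% (log2 fold change -0.48, SE 0.043, adjusted p = 1.6e-06). The apilimod call of NQO1 was lost without DMSO replicate 1 (adjusted p = 0.0562), without DMSO replicate 2 (adjusted p = 0.0523) and without a variance trend (adjusted p = 0.156), whereas the Torin-1 call held under every alternative.

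HMOX1 (ENSG00000100292.17, chr22:35380361-35394214), the inducible heme oxygenase, was close to the detection floor. It had 0.649 and 0.786 CPM with sgNC, which are 7 and 9 reads, and 1.42 and 1.83 CPM with sgPIKFYVE-1, which are 13 and 17 reads. The knockdown samples were above the control samples, and their mean was 227% of the control mean, but the log2 fold change of 0.61 (SE 0.313, adjusted p = 0.126) did not pass the test. Its mean of at least 1 CPM, which the filter on low values required, came from the sgPIKFYVE-1 samples alone. In the drug table it had 3 and 8 reads with DMSO, 4 and 10 with apilimod and 2 and 6 with Torin-1, and the groups overlapped. It did not pass the filter there, so it was not tested with the drugs, and a difference was not detectable at this depth. Without the filter the adjusted p was 0.0797 for the knockdown, 0.872 for apilimod and 0.748 for Torin-1, and without a variance trend the knockdown value was 0.0251.

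GCLC and GCLM encode the catalytic and the modifier subunit of glutamate-cysteine ligase, the rate-limiting enzyme of glutathione synthesis, and the knockdown called only the modifier. GCLC (ENSG00000001084.12, chr6:53497341-53616970) had 149 CPM in both sgNC samples and 138 and 153 CPM with sgPIKFYVE-1. The knockdown range enclosed the controls, with a log2 fold change of -0.04 and a 95% interval of -0.16 to 0.09. It had 139.7 and 137 CPM with DMSO, 131 and 138 CPM with apilimod and 154 and 164 CPM with Torin-1. Torin-1 samples lay above all others of that table, with a log2 fold change of 0.20 (SE 0.059, adjusted p = 0.0165), whereas apilimod gave -0.04 (adjusted p = 0.776). The Torin-1 call was lost without DMSO replicate 1 (adjusted p = 0.0701), without DMSO replicate 2 (adjusted p = 0.114), without Torin-1 replicate 2 (adjusted p = 0.101) and without a variance trend (adjusted p = 0.091).

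GCLM (ENSG00000023909.10, chr1:93885205-93909456) had 45.1 and 41.7 CPM with sgNC and 56.9 and 61.3 CPM with sgPIKFYVE-1. Both knockdown samples were higher, at 136% of the control mean (log2 fold change 0.44, SE 0.082, adjusted p = 0.000285). With DMSO it had 62.8 and 60.4 CPM, with apilimod 62.1 and 80.4 CPM and with Torin-1 52.3 and 52.5 CPM. The apilimod samples differed from each other more than from DMSO, and only 1 of them stood above both controls. Neither drug passed the test, at 0.20 (adjusted p = 0.287) for apilimod and -0.23 (adjusted p = 0.09) for Torin-1. Without apilimod replicate 1 the apilimod value was 0.38 (adjusted p = 0.0268), so this result turned on 1 library. With only the compared groups in the fit, the Torin-1 value had an adjusted p of 0.0298. The difference of the GCLM and GCLC changes was not tested.

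SLC7A11 (ENSG00000151012.13, chr4:138164097-138242349), the cystine importer of system xc-, was higher under every treatment. It had 296 and 280.2 CPM with sgNC and 368 CPM in both sgPIKFYVE-1 samples. The knockdown mean was 128% of the control (log2 fold change 0.35, SE 0.047, adjusted p = 5.28e-06). With DMSO it had 317 and 336 CPM, with apilimod 371 and 425 CPM and with Torin-1 442 and 482 CPM. None of these groups overlapped, and the order was DMSO, apilimod, Torin-1. The log2 fold change was 0.28 with apilimod (SE 0.064, adjusted p = 0.0119) and 0.50 with Torin-1 (SE 0.064, adjusted p = 3.87e-05). The apilimod call was lost without DMSO replicate 1 (adjusted p = 0.132), without apilimod replicate 2 (adjusted p = 0.128), without the filter on low values (adjusted p = 0.142) and without a variance trend (adjusted p = 0.209). The knockdown and Torin-1 calls held under every alternative.

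TXNRD1, the cytosolic selenoprotein that reduces thioredoxin with NADPH, had the largest called change of the members in both the knockdown and the Torin-1 comparison, in opposite directions. TXNRD1 (ENSG00000198431.16, chr12:104215779-104350305) had 297 and 312 CPM with sgNC and 451 and 465 CPM with sgPIKFYVE-1. The knockdown mean was 150.3% of the control (log2 fold change 0.59, SE 0.046, adjusted p = 5.51e-09). It had 415 and 409.8 CPM with DMSO, 447 and 445 CPM with apilimod and 277 and 279 CPM with Torin-1. Torin-1 lowered it to 67.3% of the DMSO mean (log2 fold change -0.57, SE 0.044, adjusted p = 3.29e-07). The apilimod samples were both above DMSO, by 0.11 on the log2 scale, which did not pass the test (adjusted p = 0.147).

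SRXN1 (ENSG00000271303.1, chr20:646615-653370), sulfiredoxin, restores peroxiredoxins that have been overoxidized. It had 93.3 and 97.5 CPM with sgNC and 124 and 129.8 CPM with sgPIKFYVE-1. The knockdown mean was 133% of the control (log2 fold change 0.41, SE 0.061, adjusted p = 2.6e-05). With DMSO it had 125 and 114 CPM, with apilimod 123 and 116 CPM and with Torin-1 82.8 and 90.4 CPM. Apilimod samples lay inside the DMSO range (log2 fold change -0.0047, 95% interval -0.16 to 0.15), and Torin-1 samples lay below it, at 72.4% of the DMSO mean (log2 fold change -0.46, SE 0.071, adjusted p = 0.000178). These calls of TXNRD1 and SRXN1 held under every alternative setting tried and with each sample left out.

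GPX4 (ENSG00000167468.16, chr19:1103926-1106791), the peroxidase that reduces lipid hydroperoxides in membranes, was higher with both ways of acting on PIKfyve. It had 101 and 109 CPM with sgNC and 136 and 128 CPM with sgPIKFYVE-1, a mean of 126% of the control (log2 fold change 0.33, SE 0.063, adjusted p = 0.000332). With DMSO it had 122 and 121 CPM, with apilimod 149.5 and 147 CPM and with Torin-1 115 and 121 CPM. Apilimod samples lay above all others of that table, at 122% of the DMSO mean (log2 fold change 0.28, SE 0.058, adjusted p = 0.00671). Torin-1 gave -0.04 with a 95% interval of -0.17 to 0.08. Without a variance trend, neither the knockdown call of GPX4 (adjusted p = 0.0529) nor its apilimod call (adjusted p = 0.103) held. The apilimod call was lost without DMSO replicate 1 (adjusted p = 0.0636), without DMSO replicate 2 (adjusted p = 0.0804) and without apilimod replicate 1 (adjusted p = 0.0516).

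**Figure D3:**
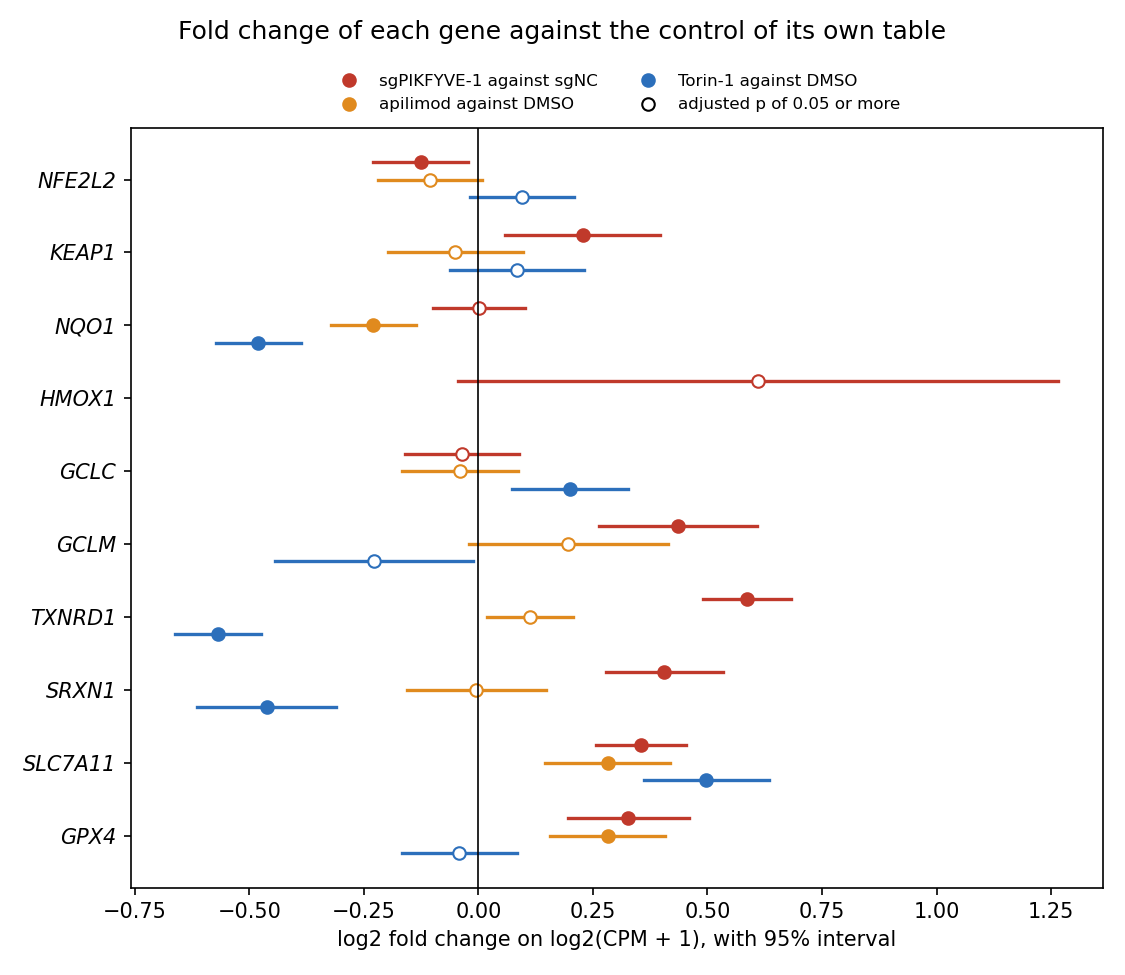
Log2 fold change on log2(CPM + 1) of each gene against the control of its own table, with limma's 95% interval; filled points have an adjusted p under 0.05, and HMOX1 was tested in the knockdown table only. Fold changes lie between -0.57 (TXNRD1, Torin-1) and 0.61 (HMOX1, knockdown, not called).

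The drugs differed from each other in most members when set against one another directly. Apilimod against Torin-1 called 8 of the 9 members tested, where 46.7% of all genes were called (26.2% higher and 20.5% lower with apilimod). TXNRD1 (log2 difference 0.68, SE 0.044, adjusted p = 2.57e-08), SRXN1 (0.46), GCLM (0.42), GPX4 (0.32) and NQO1 (0.25) were higher with apilimod. GCLC (-0.24), SLC7A11 (-0.22) and NFE2L2 (-0.20) were lower with apilimod, and KEAP1 did not pass (-0.13, adjusted p = 0.124). The calls of TXNRD1, SRXN1, GPX4, NQO1 and GCLC held with each sample left out. GCLM lost its call without apilimod replicate 2 (adjusted p = 0.0541), NFE2L2 without apilimod replicate 1 (adjusted p = 0.0522), and SLC7A11 without apilimod replicate 1 (adjusted p = 0.172) or Torin-1 replicate 2 (adjusted p = 0.102). Without a variance trend NFE2L2 (adjusted p = 0.0658) and SLC7A11 (adjusted p = 0.132) were not called, nor was SLC7A11 without the filter (adjusted p = 0.0889), while KEAP1 passed when rescaled to the same sum (adjusted p = 0.0291) or quantile normalized (adjusted p = 0.0222).

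The knockdown and apilimod both act on PIKfyve, one on the amount of its transcript and the other on its activity, and their fold changes were set against each other within 1 model. The knockdown fold change exceeded the apilimod fold change by 0.47 on the log2 scale for TXNRD1 (SE 0.061, adjusted p = 2.67e-05), by 0.41 for SRXN1 (SE 0.095, adjusted p = 0.00475) and by 0.23 for NQO1 (SE 0.067, adjusted p = 0.0206). NQO1 itself stood at 0.00082 with the knockdown and at -0.23 with apilimod. These 3 of 9 members stand beside 23.0% of all 13235 genes tested in both tables (11.1% higher and 11.9% lower in the knockdown). For SLC7A11 the difference was 0.07 with a 95% interval of -0.11 to 0.25, and for GPX4 it was 0.05 with an interval of -0.13 to 0.22. GCLM (0.24, adjusted p = 0.236) and KEAP1 (0.28, adjusted p = 0.0718) did not pass. The difference of NQO1 was lost without sgNC replicate 1, where it was 0.16 (adjusted p = 0.118), and without sgPIKFYVE-1 replicate 2, DMSO replicate 1, DMSO replicate 2 or apilimod replicate 1 (adjusted p = 0.0819, 0.0653, 0.0614 and 0.0696), as well as without the filter on low values (adjusted p = 0.0574) and without a variance trend (adjusted p = 0.149). The control means of TXNRD1 (305 CPM with sgNC, 413 CPM with DMSO) and SRXN1 (95.4 and 120 CPM) also differed between the separately scaled tables. The knockdown and the drug differ in duration, in vector and in table, which cannot be told apart from the agent.

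**Figure D4:**
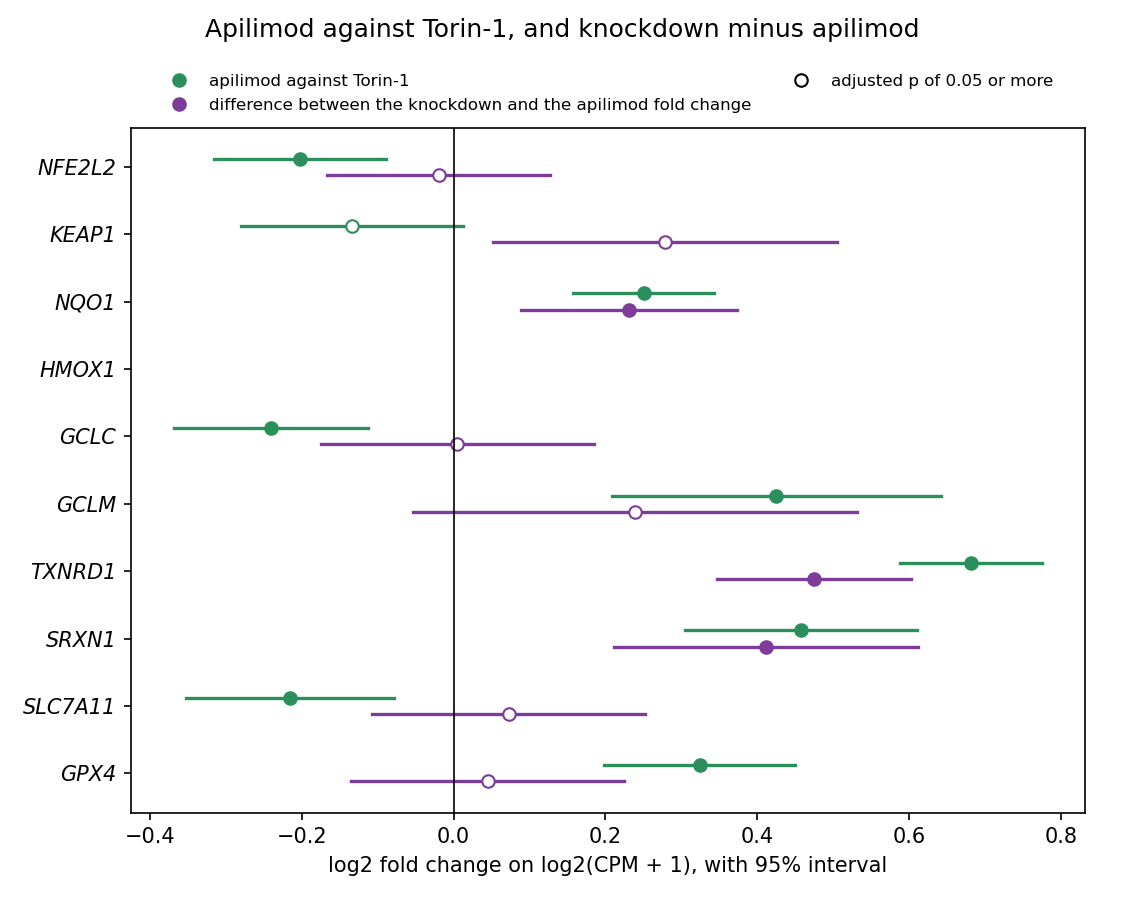
Log2 differences with 95% intervals for apilimod against Torin-1 (green, positive when higher with apilimod) and for the knockdown fold change minus the apilimod fold change (purple); filled points have an adjusted p under 0.05. TXNRD1 lies at 0.68 and 0.47.

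Among regulators and partners of NRF2, the gene raised most with the knockdown and apilimod was SQSTM1, which encodes p62. Of 11 genes tested, 2 were higher and 2 lower with the knockdown, 2 higher with apilimod, and 4 higher and 2 lower with Torin-1. The 4 of 11 called with the knockdown stand beside 42.5% of all genes, those with apilimod beside 8.54% and those with Torin-1 beside 38.5%. This list and those that follow were written with earlier results of these data known, so such counts are descriptive. SQSTM1 had 272 and 263 CPM with sgNC and 624 and 598 CPM with sgPIKFYVE-1, a log2 fold change of 1.19 (adjusted p = 1.2e-13). It also rose with apilimod, from 241 and 235 CPM to 376 and 355 CPM (log2 fold change 0.61, adjusted p = 1.2e-06), and with Torin-1, to 295 and 290.1 CPM (0.30, adjusted p = 0.000348). MAFG, a small MAF partner of NRF2, was higher with the knockdown (0.27, adjusted p = 0.00492) and apilimod (0.39, adjusted p = 0.0038) and also with Torin-1 (0.35, adjusted p = 0.00212), while its relative MAFK was lower with the knockdown (-0.38, adjusted p = 0.000339). With Torin-1, SYVN1, the ligase HRD1 of the endoplasmic reticulum, rose from 43.4 and 41.8 CPM to 87.5 and 84.6 CPM (0.997, adjusted p = 3.88e-06), and was lower with the knockdown (-0.27, adjusted p = 0.00699). PGAM5, a mitochondrial phosphatase that binds KEAP1, fell with Torin-1 (-0.74, adjusted p = 5.75e-05), and MAFF rose (0.69, adjusted p = 0.0161) from DMSO values of 13.2 and 24.8 CPM that were far apart. NFE2L1, a relative of NRF2, was lower with Torin-1 (-0.19, adjusted p = 0.0407).

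Other known NRF2 targets rose with the knockdown and fell with Torin-1 more often than the opposite. Of 26 genes tested, 13 were higher and 4 lower with the knockdown (median 0.18), 6 higher and 1 lower with apilimod (median 0.05), and 1 higher and 16 lower with Torin-1 (median -0.33). Over all genes, 21.6% were higher and 20.9% lower with the knockdown, 5.75% and 2.79% with apilimod, and 16.6% and 21.8% with Torin-1. ME1, malic enzyme, and PGD, of the pentose phosphate pathway, both supply NADPH. ME1 rose from 83.5 and 79.7 CPM to 140.5 and 139.5 CPM with the knockdown (0.77, adjusted p = 5.91e-09) and by 0.72 with apilimod (adjusted p = 1.42e-05). PGD rose by 0.56 with the knockdown (adjusted p = 5.41e-08) and from 196 and 191 CPM to 363 and 339 CPM with apilimod (0.85, adjusted p = 6.89e-08). The exporter of conjugates ABCC3 went against them in the knockdown samples, which had 12.6 and 11.0 CPM beside 65.7 and 56.3 CPM in the controls (-2.27, adjusted p = 7.39e-12), past the cutoff of 1.5. SLC40A1, the iron exporter ferroportin, was also lower with the knockdown (-0.57, adjusted p = 0.0172). Torin-1 lowered AKR1C2, an aldo-keto reductase, from 277 and 274 CPM to 119 and 128 CPM (-1.15, adjusted p = 1.94e-09) and MGST1, a microsomal glutathione transferase, from 48.4 and 50.8 CPM to 23.0 and 24.1 CPM (-1.04, adjusted p = 7.58e-07). ABCC3 was higher with Torin-1 (0.46, adjusted p = 0.0383), and AKR1C3 was lower with apilimod (-0.18, adjusted p = 0.0449). AKR1C1, AKR1C2 and AKR1C3 are similar in sequence, and how shared reads were assigned is not given in the sources used here. The split of reads among these genes is therefore uncertain.

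Genes of glutathione synthesis, recycling and use were also called higher more often than lower with the knockdown and lower more often than higher with Torin-1. Of 27 tested, 14 were higher and 4 lower with the knockdown (median 0.21), 4 higher and 1 lower with apilimod (median 0.06), and 3 higher and 13 lower with Torin-1 (median -0.29). The shares over all genes were 21.6% higher and 20.9% lower, 5.75% and 2.79%, and 16.6% and 21.8%. Apilimod called 0 to 3 of these genes when 1 sample was left out, the lowest without DMSO replicate 2. GPX2, a glutathione peroxidase of epithelia, rose from 51.3 and 54.3 CPM to 96.1 and 88.8 CPM with the knockdown (0.80, adjusted p = 4.7e-08) and fell from 96.9 and 99.2 CPM to 52.9 and 60.9 CPM with Torin-1 (-0.78, adjusted p = 4.8e-06). CHAC2, which degrades glutathione, moved in the same directions (1.01, adjusted p = 0.000275, and -1.15, adjusted p = 3.04e-05), at levels of at most 18.2 CPM. GGT7, of the gamma-glutamyltransferase family, fell with the knockdown (-0.62, adjusted p = 8.42e-07) and rose with apilimod (0.38, adjusted p = 0.00366). OPLAH, which recycles 5-oxoproline, rose with apilimod (0.62, adjusted p = 0.0224), MGST2 was lower (-0.30, adjusted p = 0.0401), and HAGH, a glyoxalase, was higher with Torin-1 (0.24, adjusted p = 0.0202). GSTM2, one of several similar mu-class transferases, was lower with the knockdown (-0.67, adjusted p = 0.0339) and higher with Torin-1 (0.61, adjusted p = 0.0383), at levels of at most 8.11 CPM. GGT1 appears under 2 gene IDs and was left out.

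Cystine and cysteine supply held the partner of SLC7A11 and the lysosomal cystine carriers. Of 9 tested, 5 were higher and 2 lower with the knockdown (median 0.18), 5 higher and none lower with apilimod (median 0.27), and 2 higher and 3 lower with Torin-1 (median -0.12). For comparison, 21.6% of all genes were higher and 20.9% lower with the knockdown, 5.75% higher with apilimod, and 16.6% higher and 21.8% lower with Torin-1. SLC3A2, the heavy chain that brings SLC7A11 to the membrane, fell with Torin-1 from 212 and 214 CPM to 155 and 156 CPM (-0.45, adjusted p = 1.13e-05), while SLC7A11 itself rose there. ATF4, a transcription factor of amino acid supply, rose with Torin-1 from 214 and 221 CPM to 296 and 285 CPM (0.42, adjusted p = 2.03e-05). CTNS, cystinosin, which exports cystine from lysosomes, rose with apilimod from 16.3 and 15.9 CPM to 26.9 and 26.3 CPM (0.69, adjusted p = 0.00161). MFSD12, which is needed for import of cysteine into lysosomes, fell with the knockdown from 58.1 and 59.0 CPM to 44.1 and 41.5 CPM (-0.44, adjusted p = 0.00018). The glutamine carrier SLC1A5 rose with the knockdown (0.63, adjusted p = 1.67e-08) and fell with Torin-1 (-0.28, adjusted p = 0.00212). The glutamate and cysteine carrier SLC1A1 fell with the knockdown (-0.64, adjusted p = 0.00436). Of the enzymes of transsulfuration, CTH was higher with the knockdown (0.63, adjusted p = 0.0141) and Torin-1 (0.52, adjusted p = 0.0342), and CBS with apilimod (0.43, adjusted p = 0.0147).

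The thioredoxin and peroxiredoxin system had its largest change with the knockdown and apilimod in TXNIP, which binds and inhibits thioredoxin. TXNIP fell from 1802 and 1815 CPM to 517 and 567 CPM with the knockdown (-1.74, adjusted p = 2.78e-16) and from 675 and 678 CPM to 317 and 321 CPM with apilimod (-1.08, adjusted p = 1.71e-10), and rose to 1435 and 1494 CPM with Torin-1 (1.11, adjusted p = 2.05e-10). Of 18 genes tested, 8 were higher and 3 lower with the knockdown (median 0.21), 1 higher and 1 lower with apilimod (median -0.04), and 2 higher and 10 lower with Torin-1 (median -0.30). These counts stand beside 21.6% higher and 20.9% lower of all genes with the knockdown, 5.75% and 2.79% with apilimod, and 16.6% and 21.8% with Torin-1. The peroxide-reducing PRDX1 rose from 301 and 312 CPM to 435 and 472 CPM with the knockdown (0.56, adjusted p = 2.29e-08) and fell from 435 and 428 CPM to 178 and 189.9 CPM with Torin-1 (-1.23, adjusted p = 1.38e-09). PRDX3, its mitochondrial relative, rose with the knockdown (0.66, adjusted p = 6.45e-08), and PRDX5 with apilimod (0.33, adjusted p = 0.000888). Of the methionine sulfoxide reductases, MSRA was lower with the knockdown (-0.44, adjusted p = 0.0104) and the selenoprotein MSRB1 was lower with Torin-1 (-0.84, adjusted p = 0.000241). TXNL1 was higher with Torin-1 (0.25, adjusted p = 0.0084).

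Selenocysteine synthesis and insertion, on which GPX4 and TXNRD1 depend, had its largest changes in LRP8, the receptor that takes up selenoprotein P. LRP8 rose from 83.2 and 88.5 CPM to 133 and 135 CPM with the knockdown (0.63, adjusted p = 1.07e-07) and from 167 and 170.1 CPM to 277 and 281 CPM with apilimod (0.72, adjusted p = 1.06e-06), and fell to 94.5 and 87.6 CPM with Torin-1 (-0.88, adjusted p = 6.22e-08). Of 9 genes tested, 3 were higher and none lower with the knockdown, 2 higher and none lower with apilimod, and 2 higher and 3 lower with Torin-1. Of all genes, 42.5%, 8.54% and 38.5% were called in these comparisons. The selenophosphate synthetase SEPHS2 was higher with apilimod (0.29, adjusted p = 0.00648). Its relative SEPHS1 was higher with the knockdown (0.31, adjusted p = 0.00478) and lower with Torin-1 (-0.52, adjusted p = 3.85e-05). SEPSECS, which makes selenocysteyl-tRNA, and SECISBP2, which binds the selenocysteine insertion element, rose with Torin-1 (0.73, adjusted p = 3.78e-05, and 0.40, adjusted p = 0.000364).

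Ferroptosis suppressors other than GPX4 were 9 higher and 1 lower of 17 with the knockdown (median 0.22), 1 higher with apilimod (median -0.02), and 1 higher and 10 lower with Torin-1 (median -0.30). Among all genes, the knockdown called 21.6% higher and 20.9% lower, apilimod 5.75% and 2.79%, and Torin-1 16.6% and 21.8%. COQ2, of coenzyme Q synthesis, rose with the knockdown from 5.66 and 6.46 CPM to 10.9 and 14.1 CPM (0.93, adjusted p = 0.000363). GCH1, the rate-limiting enzyme of tetrahydrobiopterin synthesis, rose with apilimod from 28.6 and 29.7 CPM to 49.0 and 52.6 CPM (0.78, adjusted p = 8.1e-05). With Torin-1, PDSS1 (coenzyme Q synthesis, -0.81, adjusted p = 0.000306) and SPR (tetrahydrobiopterin synthesis, -0.77, adjusted p = 2.62e-05) fell. PLA2G6, a phospholipase, was lower with the knockdown (-0.48, adjusted p = 0.0206) and higher with Torin-1 (0.43, adjusted p = 0.0288).

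Genes that favour ferroptosis were called higher more often than lower with the knockdown and apilimod, and lower more often than higher with Torin-1. Of 15 tested, 9 were higher and 1 lower with the knockdown (median 0.26), 6 higher with apilimod (median 0.23), and 4 higher and 10 lower with Torin-1 (median -0.36). All genes together had 21.6% higher and 20.9% lower with the knockdown, 5.75% and 2.79% with apilimod, and 16.6% and 21.8% with Torin-1. TFRC, the transferrin receptor that imports iron, rose from 158 and 163 CPM to 516 and 555 CPM with the knockdown (1.73, adjusted p = 1.69e-15) and fell from 224 and 219.5 CPM to 67.2 and 69.7 CPM with Torin-1 (-1.68, adjusted p = 1.68e-10), both past the cutoff of 1.5. ACSL4, which loads polyunsaturated fatty acids for membrane lipids, rose with apilimod from 90.2 and 90.8 CPM to 190.4 and 203 CPM (1.11, adjusted p = 1.43e-07). FADS1, a desaturase of polyunsaturated fatty acids, rose with apilimod (1.40, adjusted p = 4.56e-10) and the knockdown (0.65, adjusted p = 1.11e-08) and fell with Torin-1 (-0.68, adjusted p = 7.31e-07). SAT1, of polyamine catabolism, fell with the knockdown (-0.65, adjusted p = 1.2e-08) and rose with Torin-1 (0.66, adjusted p = 3.28e-06).

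Heme synthesis and degradation, the pathway in which HMOX1 opens the heme ring, had medians near 0 with the knockdown and apilimod. Of 12 tested, 5 were higher and 2 lower with the knockdown (median 0.02), 1 higher with apilimod (median 0.04), and 1 higher and 6 lower with Torin-1 (median -0.25). Beside them stand 42.5%, 8.54% and 38.5% of all genes called. BLVRB, a biliverdin reductase, was higher with the knockdown (0.47, adjusted p = 0.00555) and apilimod (0.65, adjusted p = 0.0213). BLVRA, the other reductase, fell with Torin-1 from 37.9 and 38.5 CPM to 22.1 and 24.1 CPM (-0.70, adjusted p = 4.9e-05). ALAS1, the rate-limiting enzyme of heme synthesis, rose with the knockdown from 45.7 and 47.1 CPM to 62.5 and 66.8 CPM (0.47, adjusted p = 7.66e-05), where ALAD (-0.25, adjusted p = 0.0445) and PPOX (-0.37, adjusted p = 0.019) were lower. PPOX was higher with Torin-1 (0.60, adjusted p = 0.00067).

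Of the 83 calls of list genes that the naming rule picked from these 9 groups, 52 held under every alternative setting and 31 were lost under at least 1. In the knockdown, calls of ALAD, CTH, GSTM2, PLA2G6, SLC40A1 and SYVN1 were lost without sgNC replicate 1, and those of ALAD, GSTM2, MAFG, MSRA, PLA2G6, PPOX and SLC1A1 without sgNC replicate 2. Without sgPIKFYVE-1 replicate 1, BLVRB, CTH, GSTM2, MAFG, MSRA, PPOX, SEPHS1 and SLC40A1 were lost, and without sgPIKFYVE-1 replicate 2, ALAD, PLA2G6 and SYVN1. With apilimod, AKR1C3, BLVRB, CBS, MGST2, OPLAH and SEPHS2 were lost without DMSO replicate 1, and AKR1C3, BLVRB, CBS, GGT7, MAFG, MGST2 and OPLAH without DMSO replicate 2. Leaving out apilimod replicate 1 ended the calls of AKR1C3, BLVRB, CBS, MGST2 and SEPHS2, and leaving out apilimod replicate 2 those of AKR1C3, BLVRB and OPLAH. With Torin-1, ABCC3, CTH, GSTM2, MAFF, NFE2L1 and PLA2G6 were lost without DMSO replicate 1, and ABCC3, CTH, GSTM2, HAGH, NFE2L1, PLA2G6 and TXNL1 without DMSO replicate 2. Without Torin-1 replicate 1, ABCC3, GSTM2, HAGH, MAFF and PLA2G6 were lost, and without Torin-1 replicate 2, CTH, HAGH and NFE2L1. A call lost with fewer samples does not show that the sample left out was unusual. The Torin-1 samples had 75.0 and 74.5 CPM for HAGH and 30.1 and 29.5 CPM for MAFF. The log2 fold change of MAFF ranged from 0.26 to 1.12 with 1 sample left out. PRDX5 with apilimod was lost only without a variance trend (adjusted p = 0.0654).

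**Figure D5:**
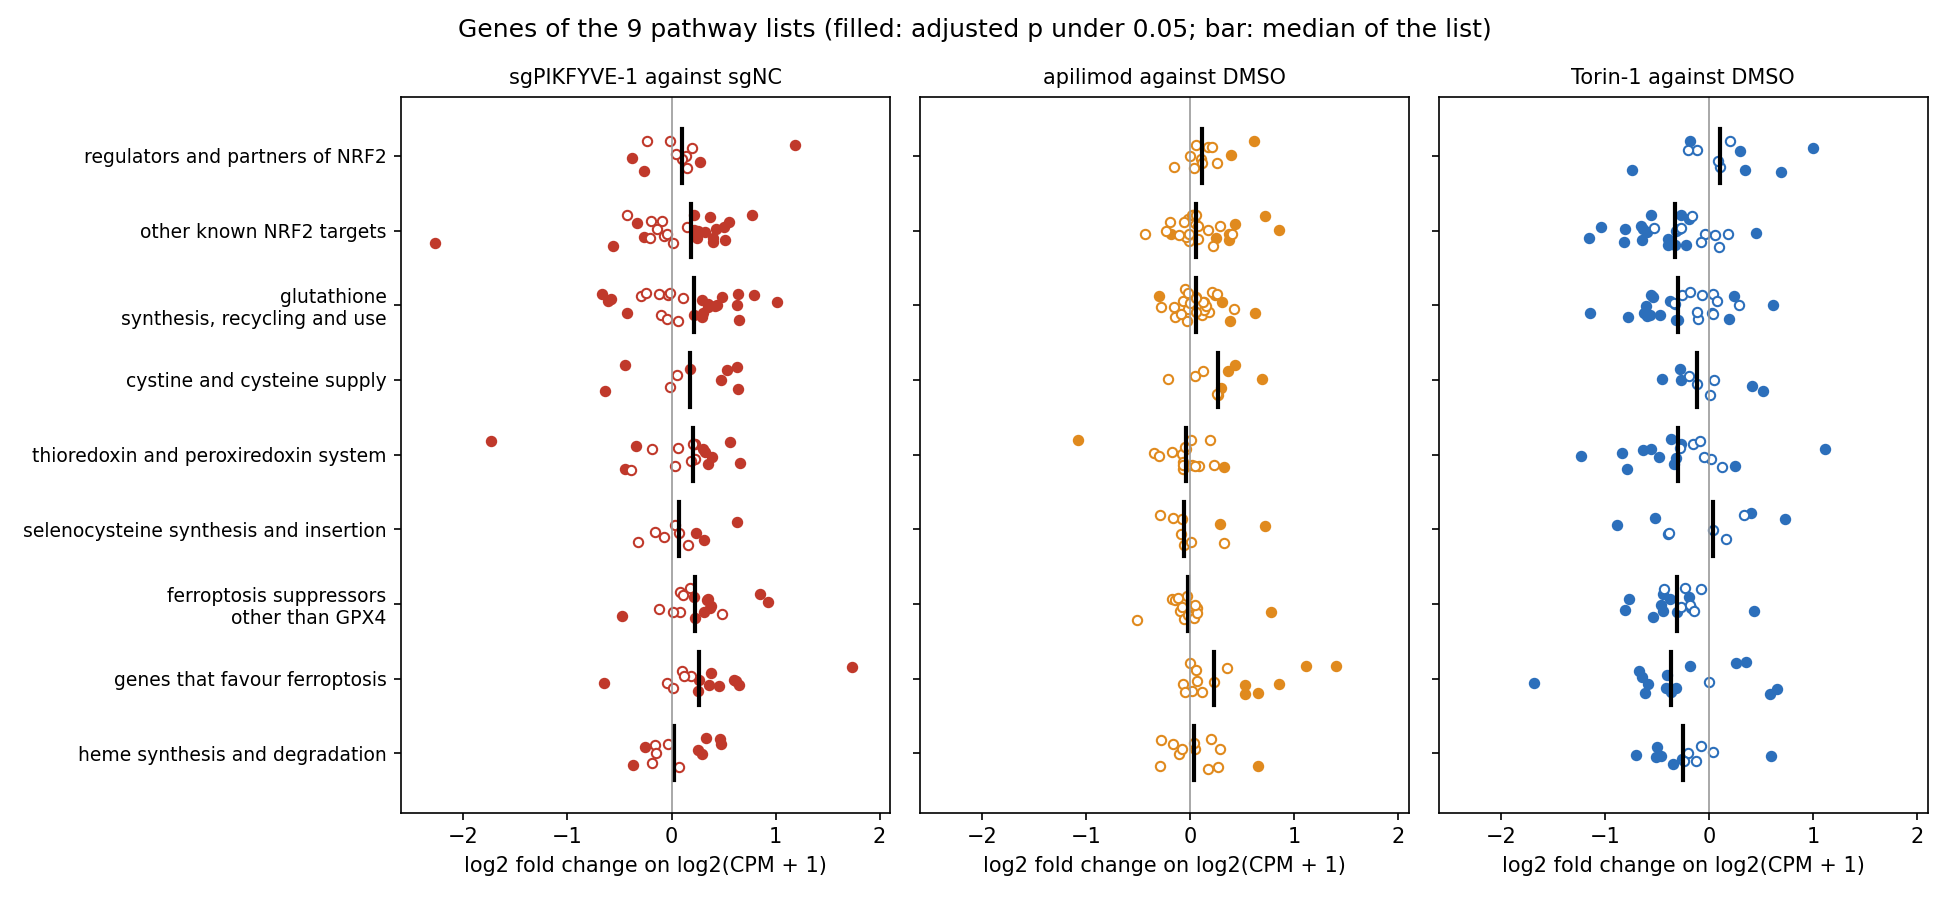
Log2 fold change on log2(CPM + 1) of each tested gene of the 9 pathway lists in the 3 comparisons; filled points have an adjusted p under 0.05, black bars are list medians and vertical positions within a list are arbitrary. In the Torin-1 panel the medians of the NRF2 target, glutathione and thioredoxin lists are -0.33, -0.29 and -0.30.

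Likeness to other genes was measured over all 10 samples as Pearson r of log2(CPM + 1) minus the control mean of the own table, among 13235 genes. The 10 points share 5 groups of 2, so r mostly reflects group means. The subtraction gives both control groups the same mean, so r rests largely on the treated groups. How high the best r among 13235 genes would be by chance was not tested. NFE2L2 was most like FBXO16 (r = 0.988), ZNF235 (0.986) and ASPH (0.985). SLC7A11 was most like RNF103 (0.967), FRAT2 (0.964) and CCN1 (0.942), and GPX4 most like JAZF1 (0.992), LRIG3 (0.987) and NDRG4 (0.981). HMOX1 was most like C5orf15 (0.968), TMEM30A (0.966) and PCNX4 (0.966), but rests on 2 to 17 reads per sample.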

How the data were processed

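RNA-seq of 10 QGP-1 samples was analysed from 2 deposited tables of gene-level signal. Per the labels and the study's methods, the authors processed hg38 data with bcl2fastq 2.20, FastQC, Trimmomatic, edgeR and DESeq2, and the deposited signal is CPM scaled with edgeR's normalization factors, separately for each table. The tool that counted reads and its annotation are not given in the sources used here, and the methods name oligo(dT) selection where the labels name ribosomal RNA depletion. Only 66% to 70% of low values were whole reads within a tolerance of 0.02, so no count model was run. The tests were designed for CPM and the values are this scaled signal, to which the same log-scale test was applied.

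Genes whose mean over the samples of a table reached 1 CPM were fitted on log2(CPM + 1) with limma 3.58.1 (lmFit and eBayes with a variance trend) in R 4.3.3, one fit per table, and p-values were adjusted by Benjamini-Hochberg over all genes tested. Exact permutation of 2 against 2 samples cannot give a two-sided p under 0.333. The fits were also run on simulated counts with 200 changed genes and the same extra spread for every gene. Fewer genes were changed there than were called in any of the 3 comparisons. That run does not measure how reliable the small changes of the members are. Alternatives were a pseudocount of 0.1, no filter, other scalings, no variance trend, a replicate block, only the compared groups, and leaving out each sample. All 10 members were named, PIKFYVE, and from each pathway list and comparison the 2 highest and the 2 lowest genes that passed with groups that did not overlap. Some genes that this rule picked are counted but not reported here. The members and lists were chosen with earlier results of these data known, so their counts beside the shares over all genes are descriptive. Gene names that a spreadsheet had turned into dates, 27 per table, were restored from gene IDs.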

Additional observations from a re-analysis of the deposited data

Results flagged for a closer look

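The log2 fold change of 3 members differed between the knockdown and apilimod by a test of the difference itself (limma, Benjamini-Hochberg adjustment over 13235 genes, of which 23.0% were called). TXNRD1 was 0.47 higher in the knockdown (95% interval 0.35 to 0.60, adjusted p = 2.67e-05), with both knockdown samples above both controls. Its mean was 305 CPM with sgNC and 458 CPM with sgPIKFYVE-1, beside 413 CPM with DMSO and 446 CPM with apilimod. SRXN1 was 0.41 higher (95% interval 0.21 to 0.61, adjusted p = 0.00475), with apilimod samples inside the DMSO range. Its mean was 95.4 CPM with sgNC and 127 CPM with sgPIKFYVE-1, beside 120 CPM with DMSO and 119 CPM with apilimod. NQO1 was 0.23 higher (95% interval 0.09 to 0.37, adjusted p = 0.0206), where the knockdown samples lay inside the control range and the apilimod samples below DMSO. The NQO1 difference was lost without the filter on low values, without a variance trend and with several of the samples left out. Those of TXNRD1 and SRXN1 held under every alternative. The control means thus differed between the separately scaled tables, and the part of this in the differences was not tested. Duration, vector and table also differ between the knockdown and the drug and cannot be told apart from the agent. With 2 samples a group, single outlying samples were not tested for.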

How the results depend on the processing

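Each result was recomputed with 1 choice changed at a time, and for changed results the cause was not tested. When a sample was left out, the lone sample was assumed to vary like the other groups.

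Calls for TXNRD1 and SRXN1 (knockdown, Torin-1 and both differences), SLC7A11 (knockdown and Torin-1), GCLM (knockdown) and NQO1 (Torin-1) held under every alternative. With the replicate number as a replicate block, the apilimod count over all genes rose from 1155 to 1756, members called from 3 to 4 and heme genes from 1 to 3. TXNRD1 with apilimod then passed (0.11, adjusted p = 0.0486), as did the difference of KEAP1 between the knockdown and apilimod (0.28, adjusted p = 0.0361). Deviations of samples with the same number correlated at 0.037 to 0.104, with 2 pairs per comparison, so the samples share only a number.

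Without a variance trend, 3709 genes were called in place of 5772 for the knockdown and 466 in place of 1155 for apilimod, where 0 members in place of 3 were called with limma, although 4 had an unadjusted p under 0.05 in the analysis as reported. Without a filter on low values, apilimod called 565 genes. With 1 sample left out it called 596 to 833 genes and 0 to 3 members, 0 without DMSO replicate 1 and 1 without DMSO replicate 2. Over the longest transcript, 8 of 20 ranks of the levels were kept.

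Pathway list calls moved by over 1.5 times as follows. For the knockdown, without a filter and without a trend, regulators went from 4 to 2 and heme genes from 7 to 2, and without a trend selenocysteine genes from 3 to 1 and suppressors from 10 to 6; heme genes ranged from 3 to 5 with 1 sample left out. For apilimod without a filter, targets went from 7 to 4, glutathione genes from 5 to 1, cystine genes from 5 to 3 and heme genes from 1 to 0. Without a trend these were 3, 0, 1 and, for regulators, thioredoxin and selenocysteine genes, 1 each. With only the compared groups, 3 heme genes were called. With 1 sample left out, targets ranged from 4 to 5, glutathione genes from 0 to 3, cystine genes from 3 to 5, selenocysteine genes from 1 to 2, and heme genes stayed at 0. For Torin-1, cystine genes went from 5 to 3 without a filter and with quantile normalization, and with 1 sample left out cystine genes ranged from 3 to 5, suppressors from 6 to 11 and heme genes from 4 to 7.

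Signs turned only for members that were not called. NQO1 in the knockdown was -0.040 rescaled to the same sum, -0.031 with quantile normalization and -0.072 to 0.073 with 1 sample left out, and GCLC ranged from -0.11 to 0.038. With apilimod, KEAP1 ranged from -0.11 to 0.014 and SRXN1 from -0.069 to 0.060. GPX4 with Torin-1 was 0.016 with quantile normalization. For the knockdown minus apilimod, GCLC was -0.0055 rescaled, and with 1 sample left out GCLC ranged from -0.069 to 0.079, GPX4 from -0.013 to 0.10, NFE2L2 from -0.053 to 0.013 and SLC7A11 from -0.024 to 0.17.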
